A study of Mus musculus with 9 samples.

Results

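Msn, Tpm4, Sdc4 and Cltc are 4 of the 251 genes in the authors' dinaciclib table and 4 of the 720 genes listed anywhere in the series. They were chosen by name as highly expressed genes of the cell cortex and of membrane traffic whose levels differed in opposite directions between dinaciclib and vehicle, so their levels and changes in that contrast are given as a description and carry no test. EHE17 is a mouse endothelial tumour cell line whose genotype is labelled TC+/+ Cdkn2a -/-, and every library came from this line. The dinaciclib group (300 nM for 16 h) and the vehicle group (DMSO) each held 3 biological replicates, and the messenger RNA was sequenced. MGH-CP1 libraries (10 μM for 16 h, 3 replicates) were set against the same vehicle libraries in a separate table that lists 471 genes, and 0 of the 4 genes are in it. A gene outside a table is not reported here as unchanged.

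Moesin, the product of Msn, belongs to the ERM family, which ties actin filaments to membrane proteins at the cell cortex, and it is the main ERM protein of endothelial cells. Tropomyosin 4, from Tpm4, is a coiled coil that lies along actin filaments and sets how myosin and other proteins reach them. Syndecan 4, from Sdc4, is a transmembrane heparan sulfate proteoglycan of focal adhesions that acts with integrins and growth factor receptors. The clathrin heavy chain, from Cltc, forms the triskelion-shaped unit of the coat around endocytic and Golgi-derived vesicles. Dinaciclib is an inhibitor of cyclin-dependent kinases, including CDK9, a kinase that RNA polymerase II needs for productive elongation. In human tumours MSN, TPM4 and CLTC are known fusion partners of the kinase ALK and SDC4 of the kinase ROS1. The authors' column of tumour types gives ALCL for Msn and Tpm4, ALCL and renal for Cltc, and NSCLC for Sdc4.

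The 250 bases before the start site of each gene, from RefSeq on GRCm38.p6, are printed as a description. The stretches differ in base composition, and whether they bear on the direction of change was not tested. Each stretch is written 5′ to 3′ on the gene's own strand, with matches to the searched motifs in capitals.
Msn (chrX:96095795-96096044, plus strand): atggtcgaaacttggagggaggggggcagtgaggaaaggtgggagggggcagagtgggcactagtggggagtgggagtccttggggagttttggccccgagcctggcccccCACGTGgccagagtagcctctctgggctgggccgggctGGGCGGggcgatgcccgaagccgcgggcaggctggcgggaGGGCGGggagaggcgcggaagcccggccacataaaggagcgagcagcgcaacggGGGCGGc
Tpm4 (chr8:72135038-72135287, plus strand): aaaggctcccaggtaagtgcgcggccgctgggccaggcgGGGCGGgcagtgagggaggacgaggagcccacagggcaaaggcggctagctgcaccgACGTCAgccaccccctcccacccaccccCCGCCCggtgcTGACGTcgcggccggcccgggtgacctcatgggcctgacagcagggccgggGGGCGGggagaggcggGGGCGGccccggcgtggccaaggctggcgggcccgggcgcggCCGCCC
Sdc4 (chr2:164443189-164443438, minus strand): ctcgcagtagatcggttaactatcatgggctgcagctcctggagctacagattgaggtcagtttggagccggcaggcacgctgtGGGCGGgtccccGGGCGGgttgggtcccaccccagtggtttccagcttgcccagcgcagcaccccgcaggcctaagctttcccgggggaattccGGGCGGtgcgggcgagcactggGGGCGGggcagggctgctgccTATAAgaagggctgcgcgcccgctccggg
Cltc (chr11:86757568-86757817, minus strand): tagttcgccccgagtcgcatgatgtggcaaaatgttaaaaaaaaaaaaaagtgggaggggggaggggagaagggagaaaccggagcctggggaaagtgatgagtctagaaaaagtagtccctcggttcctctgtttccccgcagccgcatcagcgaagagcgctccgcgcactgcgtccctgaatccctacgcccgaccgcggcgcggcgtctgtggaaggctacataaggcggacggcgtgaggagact

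The motifs searched on both strands were the GC box GGGCGG, the TATA box (TATAA), the CAAT box (CCAAT), the E-box CACGTG, the core TGACGT of the cyclic AMP response element, the TEAD core GGAATG and the CArG box bound by serum response factor. The GC box stood 3 times before Msn, 5 times before Tpm4, 4 times before Sdc4 and 0 times before Cltc. It was in 32.7% of the 32851 RefSeq promoter stretches of this length and in 66.4% of the 271 stretches of genes in the dinaciclib table. TATAA stood 29 to 25 bases before the Sdc4 start, and was in 22.8% of all stretches and 11.1% of those of table genes. CACGTG stood once before Msn (6.02% of all stretches and 11.8% of those of table genes) and TGACGT stood at 2 places before Tpm4 (6.47% of all stretches and 11.4% of those of table genes). The CAAT box, the TEAD core and the CArG box were before 0 of the 4 genes, against 33.8%, 12.6% and 1.47% of all stretches and 37.3%, 13.3% and 0.738% of those of table genes, and no matches overlapped. The share of G and C was 71.6% before Msn, 78.8% before Tpm4, 68.0% before Sdc4 and 58.0% before Cltc, beside a median of 52.4% over all stretches. The RefSeq start lay 3 bases from the deposited 5′ end of Msn and 2 bases from that of Cltc, but 313 bases from that of Tpm4 and 699 bases from that of Sdc4, so for the last pair the stretch is 1 of several possible starts.

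Dinaciclib libraries held 2541162 to 3316779 counts and vehicle libraries 31852117 to 40020833 counts, a mean vehicle total 12.2 times the mean dinaciclib total. All levels are therefore relative to the rest of each library, and a higher level of a transcript cannot be told apart from a lower level of the others, nor fewer cells of a type from less RNA per cell. Changes are on the scale of the authors' normalised counts, which are counts divided by 1 size factor per library. Among the 251 listed genes, 248 met the count filter and 248 (100%) passed the edgeR quasi-likelihood test adjusted after Benjamini and Hochberg, 62 higher (25.0%) and 186 lower (75.0%). The authors had picked these genes on the same libraries, so nothing is read from those shares, and the 4 genes count among the called ones by choice. The median log2 change over all 248 genes was −1.83. Of endothelial markers, 4 of 18 were in the table, with a summed level of 2431 to 2722 normalised counts in dinaciclib libraries and 12680 to 13116 in vehicle libraries; markers such as Pecam1 and Cdh5 were not in it. Of 10 blood cell markers only Cd74 was listed, with 1, 0 and 15 counts in dinaciclib and 5, 1 and 1 in vehicle libraries, and 0 of 10 fibroblast and mural and 0 of 7 epithelial markers were listed. The part of these markers in the results was not tested.

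Msn was the gene with the highest normalised count of the table in vehicle, and was higher still with dinaciclib. The 3 dinaciclib libraries had 179663, 143712 and 191269 normalised counts, against 10852, 11038 and 11286 in the 3 vehicle libraries. Each dinaciclib library lay far above each vehicle library, and dinaciclib replicate 2 was the lowest of its group. Groups without overlap were the rule in this table, with 247 of its 251 genes (98.4%), so the separation seen for each of the 4 genes is not particular to them. The mean was 171548 ± 24795 with dinaciclib and 11059 ± 217 in vehicle (SD, n = 3 each), a 15.5-fold higher level, and the fitted log2 change was 3.96 with SE 0.161. Among the 62 genes called higher this was the 11th change in size. The gene (ENSMUSG00000031207, chromosome X, 96096042 to 96168552, plus strand) spans 72511 bases, and its longest coding transcript has 13 exons. The small RNA gene Gm24718 lies inside it on the other strand and shares 1.39% of its 50-base words.

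Tpm4 was higher with dinaciclib as well. It had 124890, 100630 and 130029 normalised counts in dinaciclib libraries, against 11259, 10974 and 10761 in vehicle libraries. As for Msn, the groups did not overlap and replicate 2 was the lowest dinaciclib library. The mean was 118516 ± 15702 with dinaciclib and 10998 ± 250 in vehicle (SD, n = 3 each), 10.8-fold higher, with a log2 change of 3.43 and SE 0.143. Tpm4 (ENSMUSG00000031799, chromosome 8, 72134975 to 72153142, plus strand) has 8 exons in its longest coding transcript. It overlaps the antisense gene Gm26586 and the transcript Gm16091 on the other strand. Of its 50-base words, 15.7% also occur in transcripts of Gm26586 or Gm7809. The libraries carry no strand mark, so reads of overlapping genes cannot be told apart from those of Tpm4.

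Sdc4 stood far lower in vehicle and was also higher with dinaciclib, by less than Msn and Tpm4. The dinaciclib libraries had 4072, 3567 and 4104 normalised counts, against 588, 604 and 600.2 in the vehicle libraries. The vehicle libraries were close together and replicate 2 was again the lowest of the dinaciclib group. The mean was 3914 ± 302 with dinaciclib and 598 ± 8.37 in vehicle (SD, n = 3 each), 6.55-fold higher, with a log2 change of 2.71 and SE 0.0876. Sdc4 (ENSMUSG00000017009, chromosome 2, 164424247 to 164443887, minus strand) has 5 exons in its longest coding transcript, overlaps 0 other annotated genes and shares 0 of its 50-base words with other genes.

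Cltc went the other way. It had 658, 770.4 and 619 normalised counts in dinaciclib libraries, against 6888, 6314 and 6249 in vehicle libraries. The groups did not overlap, and replicate 2, the lowest dinaciclib library for the other 3 genes, was here the highest. The mean was 683 ± 78.5 with dinaciclib and 6484 ± 352 in vehicle (SD, n = 3 each), 9.50-fold lower, with a log2 change of −3.24 and SE 0.104. Among the 186 genes called lower this was the 48th change in size. Cltc (ENSMUSG00000047126, chromosome 11, 86694351 to 86757565, minus strand) spans 63215 bases with 32 exons in its longest coding transcript, and 1.03% of its 50-base words occur in other genes. At 8499 bases its exons are the longest of the 4, beside 6327 for Msn, 2547 for Sdc4 and 2203 for Tpm4; the median was 4495 over the genes called higher and 6689 over those called lower.

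**Figure D1:**
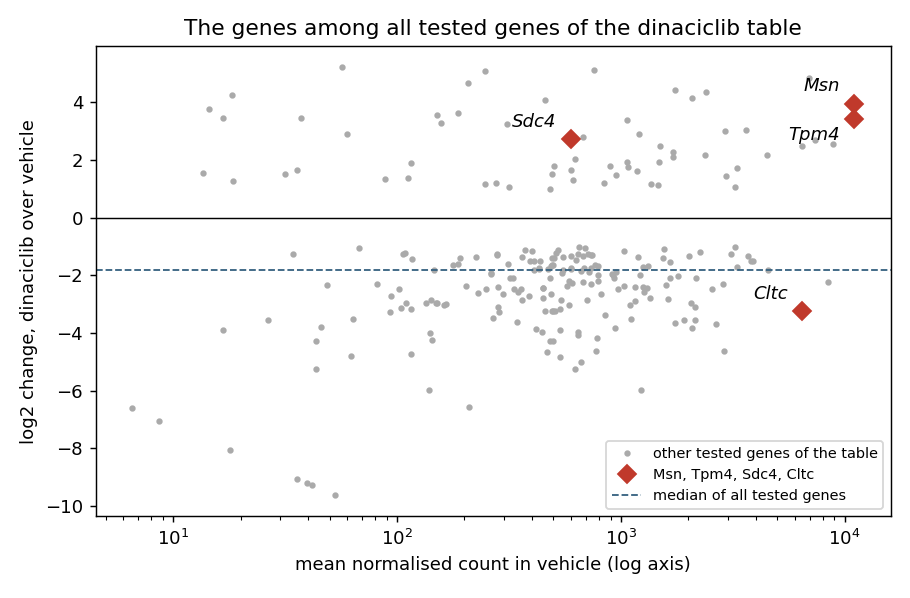
Each point is a tested gene of the dinaciclib table, with its mean normalised count in vehicle (log axis) against its log2 change (dinaciclib over vehicle, edgeR) and the dashed line at the median of −1.83. Msn and Tpm4 lie at the right edge at 3.96 and 3.43, Sdc4 near the middle at 2.71 and Cltc at the lower right at −3.24; points below about −6 belong to genes with few or 0 counts in dinaciclib libraries, and their fitted changes are no bounds.

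The deposited counts show what these levels rest on. Msn had 48579, 50367 and 58390 counts in dinaciclib libraries and 33410, 36563 and 43794 in vehicle libraries, so its counts were higher in the much smaller libraries. Tpm4 had 33769, 35268 and 39695 counts with dinaciclib and 34662, 36351 and 41758 in vehicle, and the summed counts of its groups differed by a ratio of only 0.964. Sdc4 had 1101, 1250 and 1253 counts with dinaciclib against 1811, 2002 and 2329 in vehicle, a ratio of 0.587 between the sums. Cltc had 178, 270 and 189 counts with dinaciclib against 21205, 20915 and 24250 in vehicle, a ratio of 0.00960. Over the 62 genes called higher the median of this ratio was 0.418, and it was above 1 for 14 of them.

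Msn made up 1.91%, 1.52% and 2.04% of all counts in the dinaciclib libraries, against 0.105%, 0.107% and 0.109% in the vehicle libraries. Tpm4 made up 1.33%, 1.06% and 1.39% with dinaciclib, against 0.109%, 0.106% and 0.104% in vehicle. Together the 4 genes held 2.63% to 3.48% of the counts of dinaciclib libraries and 0.280% to 0.286% of those of vehicle libraries. Most of it came from Msn and Tpm4. The share of the other genes of the table was also higher with dinaciclib, at 6.98% to 8.79%, against 2.25% to 2.29% in vehicle. Within the table alone the 4 genes held 27.4% to 28.4% of the counts with dinaciclib and 10.9% to 11.1% in vehicle.

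**Figure D2:**
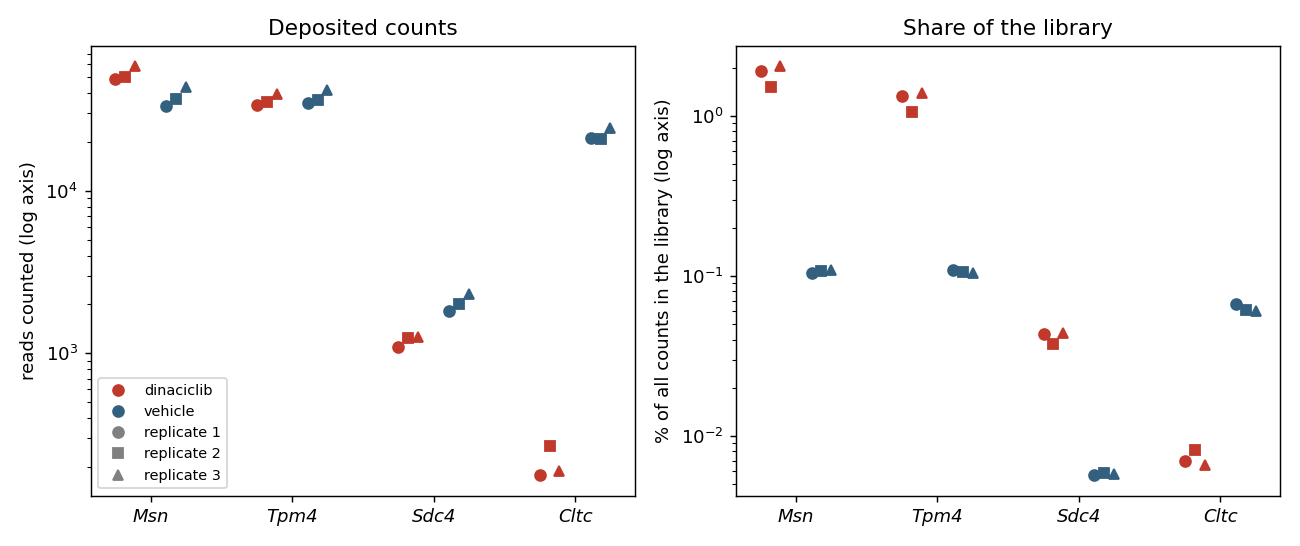
Left, deposited counts, and right, percent of all counts of the library, for each gene in each of 3 dinaciclib (red) and 3 vehicle (blue) libraries, both on log axes, with symbols for the replicates. Counts of Msn and Tpm4 lie at a like height in both groups on the left, while on the right their shares are 1.06% to 2.04% with dinaciclib and 0.104% to 0.109% in vehicle.

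FPKM, which divides by gene length and library total, allows levels of different genes to be set side by side. With dinaciclib Tpm4 had the highest FPKM of the 4, at 6032, 4827 and 6297 by replicate, then Msn at 3021, 2400.1 and 3225, Sdc4 at 170.1, 148 and 172, and Cltc at 8.24, 9.58 and 7.77. In vehicle Tpm4 led at 494, 483 and 474, followed by Msn at 166, 169 and 173, Cltc at 78.3, 72.1 and 71.3, and Sdc4 at 22.3, 23.0 and 22.8. In neither group did the libraries of neighbouring genes in this order overlap. Sdc4 and Cltc changed places between the groups, while Tpm4 and Msn kept theirs. In the whole table Tpm4 ranked 2nd by FPKM with dinaciclib, behind the chaperone gene Calr, and 1st in vehicle; Msn ranked 3rd with dinaciclib and 4th in vehicle. Sdc4 ranked 21st to 22nd with dinaciclib and 48th to 53rd in vehicle, and Cltc 62nd to 68th with dinaciclib and 15th to 16th in vehicle.

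**Figure D3:**
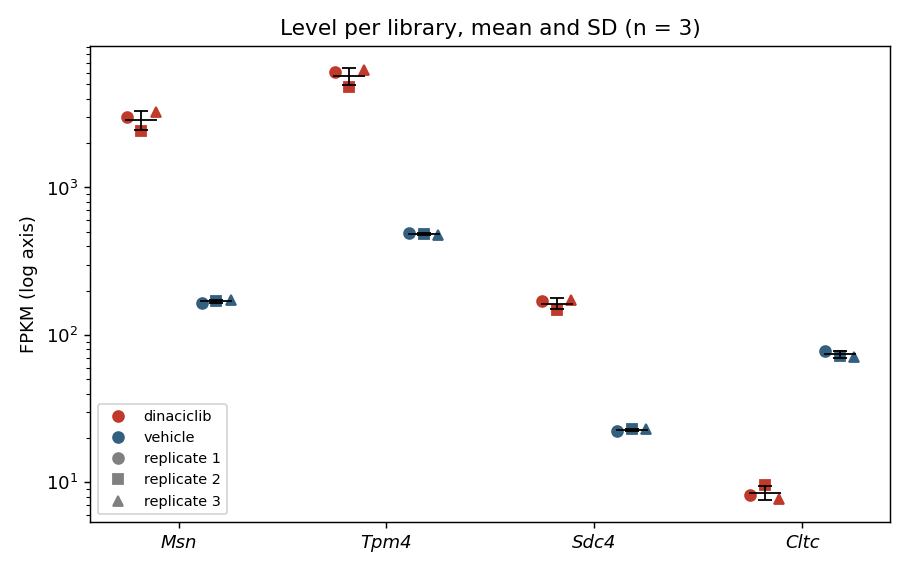
FPKM (log axis) of each gene in each library, with dinaciclib in red at the left and vehicle in blue at the right of each pair, and bars for mean and SD (n = 3). Msn, Tpm4 and Sdc4 are higher with dinaciclib and Cltc is lower, at 8.53 ± 0.937 FPKM with dinaciclib and 73.9 ± 3.86 in vehicle, with no overlap between groups for the 4 genes, as for 98.4% of the table.

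Ratios of 2 genes within a library need no scaling between libraries. The FPKM of Msn over that of Cltc was 367, 251 and 415 in dinaciclib libraries, against 2.12, 2.35 and 2.43 in vehicle libraries. The same ratio for Tpm4 over Cltc was 732, 504 and 810.3 with dinaciclib, against 6.31, 6.71 and 6.64 in vehicle. Sdc4 was 20.6, 15.4 and 22.1 times Cltc with dinaciclib but 0.285, 0.319 and 0.320 times Cltc in vehicle. The ratios among the 3 genes that were higher with dinaciclib also differed between groups. Msn over Sdc4 averaged 17.6 ± 1.28 with dinaciclib and 7.45 ± 0.111 in vehicle, and Tpm4 over Sdc4 averaged 34.9 ± 2.06 with dinaciclib and 21.3 ± 0.743 in vehicle (SD, n = 3 each). The ratio that differed least between groups was that of Msn over Tpm4, at 0.503 ± 0.00778 with dinaciclib and 0.350 ± 0.0148 in vehicle (SD, n = 3 each). Its log2 difference of 0.52 was still above the combined replicate SD of 0.0648. For all 6 pairs the 2 groups of libraries did not overlap, but 247 of the 251 genes of the table (98.4%) also separated singly. The share over other pairs of genes was not computed, and these genes were chosen for opposite changes.

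**Figure D4:**
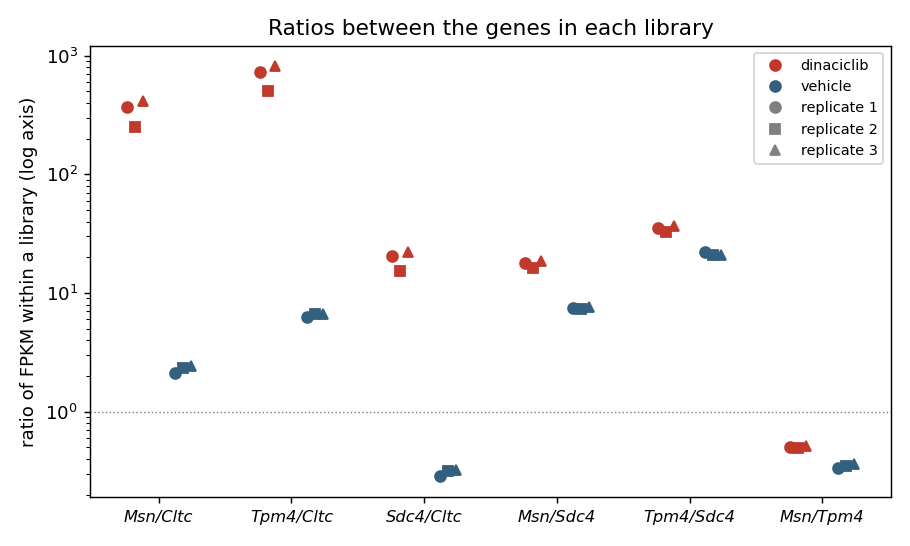
Ratio of the FPKM of 2 genes within each library (log axis; dotted line at 1), for 3 dinaciclib libraries in red at the left and 3 vehicle libraries in blue at the right of each pair. The ratios to Cltc differ most between groups, with Msn over Cltc at 251 to 415 with dinaciclib and 2.12 to 2.43 in vehicle, and Msn over Tpm4 differs least, at 0.497 to 0.512 with dinaciclib and 0.336 to 0.365 in vehicle.

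The spread between replicates was wider with dinaciclib. The coefficient of variation of the normalised counts was 14.5% with dinaciclib and 1.97% in vehicle for Msn, and 13.2% with dinaciclib and 2.27% in vehicle for Tpm4. It was 7.70% with dinaciclib and 1.40% in vehicle for Sdc4, and 11.5% with dinaciclib and 5.42% in vehicle for Cltc. Counting error alone would give 0.438% for Msn with dinaciclib and 6.98% for Cltc with dinaciclib, where 637 counts stood behind the 3 libraries. For all 4 genes dinaciclib replicate 2 was the library nearest to vehicle. It was also the nearest for 51 of the 62 genes called higher (82.3%) and for 93 of the 186 called lower (50.0%). Without that library the log2 changes were 4.07 for Msn, 3.53 for Tpm4, 2.77 for Sdc4 and −3.35 for Cltc.

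Around Msn, 37 genes of ERM proteins, their membrane partners and other cortex linkers were listed, and besides Msn only Nf2 was in the table. Nf2 encodes merlin, a tumour suppressor of the same protein superfamily as moesin. It rose to 11820, 9193 and 12310 normalised counts with dinaciclib, against 1079, 1052 and 1077 in vehicle. The log2 change was 3.38 with SE 0.122 (edgeR quasi-likelihood, Benjamini-Hochberg adjusted p 5.28e-08), in a picked table where 100% of the tested genes passed. For Nf2 3 of 3 dinaciclib libraries lay above each vehicle library, and 98.4% of the table separated without overlap. Its sister genes Ezr and Rdx were not in the table.

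Of 62 genes of tropomyosins, actin and actomyosin, 5 besides Tpm4 were in the table and tested, and 2 rose while 3 fell, beside 25.0% higher and 75.0% lower in the table. Lcp1, which encodes the actin bundler L-plastin, averaged 7981 ± 1187 normalised counts with dinaciclib and 2947 ± 99.7 in vehicle (SD, n = 3 each), and Lpp, a focal adhesion LIM protein gene, 3213 ± 189 with dinaciclib and 1461 ± 24.6 in vehicle. Lasp1, for an actin-binding LIM and SH3 protein, fell to 1014 ± 172 with dinaciclib against 3290 ± 99.5 in vehicle. Afdn, for the junctional actin linker afadin, fell to 584, 599 and 563 with dinaciclib against 1521, 1546 and 1546 in vehicle. With TMM factors over the listed genes, which raised the median change of the table by 1.38, 2 of the 5 were higher and 1 lower. Lasp1 then lost its call at −0.31 and Afdn at −0.02 (edgeR quasi-likelihood, Benjamini-Hochberg adjusted p 0.0849 for Lasp1 and 0.888 for Afdn). Mkl1, for the actin-sensing coactivator of serum response factor, was named after its values were seen: it had 48.1, 28.5 and 0 normalised counts with dinaciclib against 496, 461 and 486 in vehicle, and its log2 change of −4.27 was −4.98 without dinaciclib replicate 1.

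Of 36 genes of syndecans, glypicans and heparan sulfate synthesis, Ext2 and Ext1 were in the table besides Sdc4, and they changed in opposite directions. Their products form the enzyme complex that polymerises heparan sulfate chains, such as those syndecan 4 carries. Ext2 rose to 41052, 31800 and 41310 normalised counts with dinaciclib, against 1790, 1721 and 1755 in vehicle. Ext1 fell to 170, 157 and 285 with dinaciclib, against 697, 671 and 687 in vehicle. The log2 change was 4.44 with SE 0.132 for Ext2 and −1.75 with SE 0.239 for Ext1. The edgeR quasi-likelihood p, adjusted after Benjamini and Hochberg, was 2.51e-08 for Ext2 and 1.17e-04 for Ext1. For Ext2 3 of 3 dinaciclib libraries were higher and for Ext1 3 of 3 were lower, and 98.4% of the table separated without overlap. With TMM factors Ext1 lost its call at −0.37 (edgeR quasi-likelihood, Benjamini-Hochberg adjusted p 0.195).

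Of 53 genes of the clathrin coat and endocytosis, Tfrc and Hip1 were in the table besides Cltc. Tfrc encodes the transferrin receptor, a classic cargo of clathrin-coated pits, and it rose to 7789, 8140 and 9536 normalised counts with dinaciclib against 215, 262 and 265 in vehicle. Hip1, whose product binds clathrin and actin, fell to 1294, 1467 and 1386 with dinaciclib against 3914, 3834 and 3918 in vehicle. The log2 change was 5.10 for Tfrc and −1.49 for Hip1, and that of Hip1 was −0.11 with TMM factors, where it lost its call (edgeR quasi-likelihood, Benjamini-Hochberg adjusted p 0.296).

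Of 27 genes listed for Golgi and secretory coats and tethers 6 were tested, with 0 higher and 6 lower, beside 75.0% lower in the whole table. Their median log2 change was −2.14, beside −1.83 in the whole table. Gphn, named after its values were seen, is among the 6. It encodes the scaffold protein gephyrin, which is no coat or tether protein, and had 40 counts in the dinaciclib libraries. Tfg, whose product organises exit sites of the endoplasmic reticulum, averaged 96.6 ± 48.0 normalised counts with dinaciclib and 705 ± 27.0 in vehicle, and the Golgi PDZ protein gene Gopc 75.6 ± 18.1 with dinaciclib and 542 ± 15.8 in vehicle. The golgin gene Trip11 averaged 152 ± 90.7 with dinaciclib and 552 ± 16.4 in vehicle, with a log2 change of −1.83, or −2.45 without dinaciclib replicate 2. The SNARE gene Vti1a averaged 174 ± 35.6 with dinaciclib and 374 ± 12.8 in vehicle. With TMM factors 3 of the 6 passed, all lower, and Vti1a stood at 0.26 without passing. Of 30 microtubule, septin and intermediate filament genes 4 were tested: Sept5 and Sept6 rose, and the kinesin gene Kif5b and the microtubule-associated protein gene Eml4 fell. The rise of Sept5 rested on 41 counts in the dinaciclib libraries. Without dinaciclib replicate 3 its log2 change was 0.81 and it lost its call (edgeR quasi-likelihood, Benjamini-Hochberg adjusted p 0.157). The call of Sept5 was also lost without dinaciclib replicate 1 and without vehicle replicate 3. Of 28 adhesion and junction genes 0 were in the table.

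**Figure D5:**
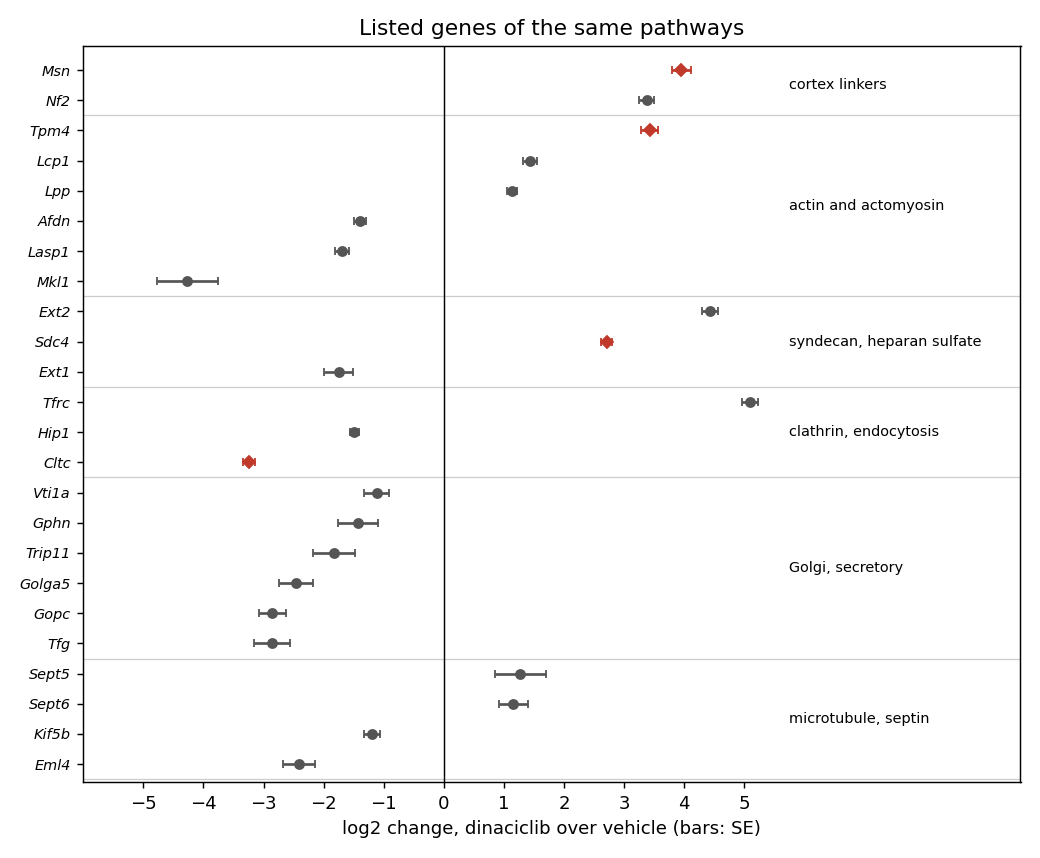
Log2 change (dinaciclib over vehicle, edgeR; bars are SE) of the tested genes of 6 lists of the cytoskeleton, proteoglycans and membrane traffic, grouped by list, with the 4 genes as red diamonds. The 6 genes of the Golgi and secretory list, which includes Gphn, all lie below 0. The actin, heparan sulfate and endocytosis groups hold genes on both sides. Of all tested genes 75.0% were lower, and with TMM factors 3 of the 6 genes of the Golgi list passed and Vti1a changed sign.

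Of 30 genes known in human tumours as partners of ALK or ROS1 fusions, 12 were in the table and 7 besides the 4 genes were tested, 1 higher and 6 lower, beside 25.0% higher and 75.0% lower in the table. Atic, of purine synthesis, rose to 1953 ± 281 normalised counts with dinaciclib against 842 ± 18.8 in vehicle, and the nucleolar gene Npm1 fell to 1581 ± 117 with dinaciclib against 3228 ± 87.3 in vehicle. Kif5b averaged 984 ± 186 with dinaciclib and 2258 ± 56.4 in vehicle, and Eml4 216 ± 93.6 with dinaciclib and 1153 ± 37.0 in vehicle. With TMM factors 2 of the 7 were higher and 4 lower: Npm1 passed in the opposite direction at 0.35, and Kif5b lost its call at 0.19 (edgeR quasi-likelihood, Benjamini-Hochberg adjusted p 0.00459 for Npm1 and 0.315 for Kif5b).

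The tested genes whose profiles were most alike were ranked by the root mean square difference of log2(normalised count + 1), centred on the vehicle mean, over the 6 libraries. For Msn they were Crlf2, a cytokine receptor gene (0.114), Rpn1 of the oligosaccharyltransferase (0.146) and the DNA damage binding protein gene Ddb2 (0.231). Crlf2 averaged 7872 ± 1013 normalised counts with dinaciclib and 460 ± 28.2 in vehicle (SD, n = 3 each). For Tpm4 they were Nf2 (0.0485), the Notch target gene Hey1 (0.0824) and the transcription factor gene Foxo4 (0.139), so that the profile of Tpm4 was nearer to that of Nf2 than to that of Msn (0.372). With this centring the order largely restates the size of the log2 change, at 3.43 for Tpm4, 3.38 for Nf2 and 3.96 for Msn. A shared behaviour beyond that was not tested. For Sdc4 they were the ribosome maturation gene Sbds (0.0658) and the cyclin gene Ccnd1 (0.0866). Sbds averaged 4725 ± 371 with dinaciclib and 680.02 ± 28.3 in vehicle. For Cltc they were Fas (0.157), the ETS factor gene Etv5 (0.181) and the chromatin remodeller gene Arid1a (0.206). Fas had 0 counts in the dinaciclib libraries, so its place was set by the pseudocount of 1. Etv5 averaged 52.1 ± 16.2 with dinaciclib and 497 ± 19.5 in vehicle.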

How the data were processed

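Messenger RNA of EHE17 cells was captured on poly-T beads and copied with random primers and dTTP in the second strand, per the labels' protocols. Tools in the submitters' processing notes are DESeq2 1.20.0, featureCounts 1.5.0-p3, HISAT2 2.0.5 and fastp; a genome build is not given in the sources used here. GRCm38 was taken as the build, since GENCODE M21 holds all 251 gene identifiers and places 242 (96.4%) at identical coordinates. Per the file headers the authors deposited raw counts, FPKM values, p-values with their adjusted form, and log2 fold changes. The normalised signal the authors deposited equals each raw count over a single factor for its library. Dividing columns gave those factors and the library totals. Every listed gene has a deposited log2 change of at least 1.00 in size, at a deposited adjusted p under 0.05.

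The members and the gene lists were chosen with earlier results of these data known, and no call is independent of the authors' choice of genes. Counts were fitted with edgeR 4.0.16 in R 4.3.3 (quasi-likelihood test, two-sided, no covariate, 6 libraries, filterByExpr with a minimum count of 10), on the authors' size factors, with Benjamini-Hochberg adjustment over all tested genes and a threshold of 0.05. The SE is the log2 change divided by the root of the F statistic. The fit was tested on simulated data. P-values weigh the difference between the groups against the spread between these replicates. Genes named are the 4 members, up to 4 others per list by mean normalised count, and the 3 most alike profiles per member, among regular symbols; a like gene and a gene list are not reported here. Promoter stretches came from RefSeq; 4 of 4 members matched. Alternatives were TMM factors, library totals, DESeq2 1.42.0, no count filter, the replicate number as a block, vehicle counts thinned to the dinaciclib depth, other thresholds and leaving out each replicate.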

Additional observations from a re-analysis of the deposited data

How the results depend on the processing

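The direction of each of the 4 genes held under each alternative run, which is a description, since they were chosen on this contrast. The 6 ratios between them were rerun only without each replicate and as ratios of counts, and their directions held. Gene length cancels in the change of a ratio, so the run on counts could not differ. TMM factors over the listed genes, which take most of these picked genes as unchanged, raised the table's median by 1.38. They gave log2 changes of 5.33 for Msn, 4.80 for Tpm4, 4.09 for Sdc4 and −1.86 for Cltc. Relative to the median of all tested genes Msn stood at 5.78 with TMM and 5.79 without. A change of library scale shifts all genes nearly alike, so this relative value could hardly differ. Library totals moved the median by 0.13 and Sdc4 to 2.84. Leaving out each replicate in turn gave 3.87 to 4.07 for Msn, 3.36 to 3.53 for Tpm4, 2.67 to 2.77 for Sdc4 and −3.35 to −3.18 for Cltc. Between 240 and 249 genes of the table passed without single replicates, 61 to 63 higher and 179 to 186 lower; TMM gave 108 lower calls, and a minimum log2 change of 2 left 148 calls, 35 higher and 113 lower. With vehicle counts thinned to the dinaciclib depth 233 genes passed. Of the 4 genes Cltc had the fewest dinaciclib counts, 637, which set a counting error of 6.98% within its replicate spread of 11.5%.

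No pairing of the samples by replicate number is stated, and the values do not settle it. Deviations of same-numbered libraries correlated at 0.165, 0.135 and 0.0183 across genes. Those of differently numbered libraries correlated at −0.166 to 0.0462. With the number as a replicate block the log2 changes were 3.95 for Msn, 3.42 for Tpm4, 2.71 for Sdc4 and −3.25 for Cltc, and 240 genes passed, 59 higher and 181 lower; Sept5 lost its call under the block.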
